A study of Mus musculus with 2 samples.

Results

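Nucleotide, serine and folate one-carbon synthesis was followed through 34 genes of the enzymes that make serine, load one-carbon units onto folate, build purine and pyrimidine nucleotides and turn them into DNA precursors. The genes were chosen by symbol, each symbol equalled 1 row of the deposited table, and together they made up 34 of its 23235 genes. All 34 had been tested by the authors. Expression had been measured by RNA sequencing in bone marrow progenitors of C57B6 mice, lineage-depleted and transduced with 2 MIGR1 retroviruses. One virus encoded HA-Hoxa9-ER, in which the homeobox factor Hoxa9 is joined to a ligand-binding estrogen receptor domain, and the other encoded its homeobox cofactor Meis1 with a Flag tag. Both groups carried both viruses, grew with IL3 and had been transformed in 100 nM 4-hydroxytamoxifen (4OHT), which keeps the Hoxa9-ER fusion in the nucleus. After washing, the 4OHT group stayed in 100 nM 4OHT for 72 h and the EtOH group spent 72 h in ethanol, the solvent alone, in which nuclear Hoxa9-ER is lost. Each group was 1 sample made of 2 biological replicates, with 1 value per gene and no replicate values used here. The labels give no other detail of how the replicates were made or combined, so any replicate error enters only through the authors' own test.

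Serine is made from a glycolytic intermediate in 3 enzyme steps, and its conversion to glycine passes a one-carbon unit to folate. Folate then delivers these units to the growing purine ring and to thymidylate, so serine, folate and nucleotide synthesis run as a connected supply line in dividing cells. In blood progenitors and leukaemias this supply supports proliferation, and it is the target of antifolates and of inhibitors of purine and pyrimidine synthesis used as drugs. Many of its genes are known targets of the transcription factors Myc and Atf4.

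Levels are given in FPKM, fragments counted per transcript length and relative to all mapped fragments, which allows levels of different genes to be set side by side. Changes are log2((FPKM EtOH + 1)/(FPKM 4OHT + 1)), in which a positive value is higher in EtOH and low genes are damped. A gene rose or fell where the authors' deposited table listed a q-value of at most 0.05, adjusted over all tested genes. FPKM gives no read totals, so the depth is unknown and no counting error can be stated. In these bulk samples fewer cells of a type and less RNA per cell cannot be told apart. Hoxa9 RNA itself was 476 FPKM in 4OHT and 892 FPKM in EtOH, which does not show where the fusion protein is. General markers of blood-forming cells summed to 673 and 1572 FPKM over 8 of 8 genes found at 1 FPKM or more, of which 5 rose and 1 fell. Mpo, myeloperoxidase, held most of the higher sum, at 186 and 918 FPKM, while Cd34, a marker of early progenitors named after its values were seen, fell from 124 to 45.8 FPKM. Of all 11865 genes tested by the authors, 12.0% rose and 10.5% fell. Late neutrophil markers rose in 10 of 10 genes, with a summed level of 141 FPKM in 4OHT and 16292 FPKM in EtOH. Eosinophil markers summed to 134 and 4693 FPKM and rose in 6 of 7, basophil and mast cell markers to 810 and 3639 FPKM and rose in 6 of 8, and monocyte and macrophage markers to 3370 and 3729 FPKM, of which 5 of 9 rose and 1 fell. Most of that last sum was Ly6c2, at 3104 and 3463 FPKM, which did not pass, and the gene that fell was Emr1, from 202 to 102 FPKM. Erythroid markers summed to 202 and 81.6 FPKM, and 2 of 8 fell, while Klf1, also named after its values were seen, rose from 0.31 to 0.935 FPKM. Megakaryocyte markers summed to 104 and 94.1 FPKM, and 1 of 7 rose and 1 fell, near the shares of all tested genes. Stroma and endothelium markers summed to 252 and 238 FPKM, mostly Pecam1, which did not pass, while Pdgfrb fell from 7.99 to 1.74 FPKM. The B cell and T and NK cell lists stayed at or under 3.68 FPKM in sum, with Ms4a1, Pax5, Ebf1, Cd3e, Cd3g and Cd4 listed at 0 in both conditions. Lck, which held most of the T and NK cell sum, fell from 3.55 to 1.51 FPKM. The part of these cell types in the changes below was not tested.

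The synthesis genes were lower on balance after withdrawal of 4OHT. Genes fell in serine synthesis, the folate enzymes, the purine ring, pyrimidine synthesis and the supply of phosphoribosyl pyrophosphate (PRPP). No gene was called lower among the 6 of deoxynucleotide supply or the 5 that lead to AMP and GMP. With so few genes, a count of 0 lies near the 10.5% called lower among all genes tested. By the authors' deposited table, 13 of the 34 genes fell, or 38.2%, against 10.5% of the 11865 genes tested. Only Adssl1 rose, or 2.94%, against 12.0% of all genes tested. The other 20 genes did not pass, and 13 of these had the lower value in EtOH. In all, 26 of 34 genes, or 76.5%, had the lower value in EtOH, against 57.0% of the 10981 tested genes with at least 1 FPKM in 4OHT or EtOH. The median change of the 34 genes was -0.31, with quartiles of -0.59 and -0.06. Over the tested genes of at least 1 FPKM the median was -0.06, with quartiles of -0.25 and 0.18.

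The 13 genes fell by between 30.4% and 39.6%, or by 0.49 to 0.67 on the log2 scale, while their 4OHT levels ran from 11.3 FPKM for Dhodh to 245 FPKM for Psat1. All 34 genes together made up 0.396% of the summed FPKM of all genes in 4OHT and 0.320% in EtOH. Bringing EtOH to the same FPKM total as 4OHT lowered the median change of all tested genes by 0.10 to -0.16, a scaling that lowers every EtOH value. Bringing EtOH to a median ratio of 1 raises every EtOH value, and under it the changes of the 13 genes ran from -0.61 for Ctps to -0.43 for Cad, with a median of -0.25 over the 34 genes. At a q-value of at most 0.01, 13 genes were called lower and 1 higher, against 6.68% and 9.41% of all genes tested. When a change of at least 1.5-fold was also asked for, 9 genes were called lower and 1 higher, against 7.23% and 9.89% of all genes tested, and Shmt2, Mthfd1, Adsl and Cad were lost.

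**Figure D1:**
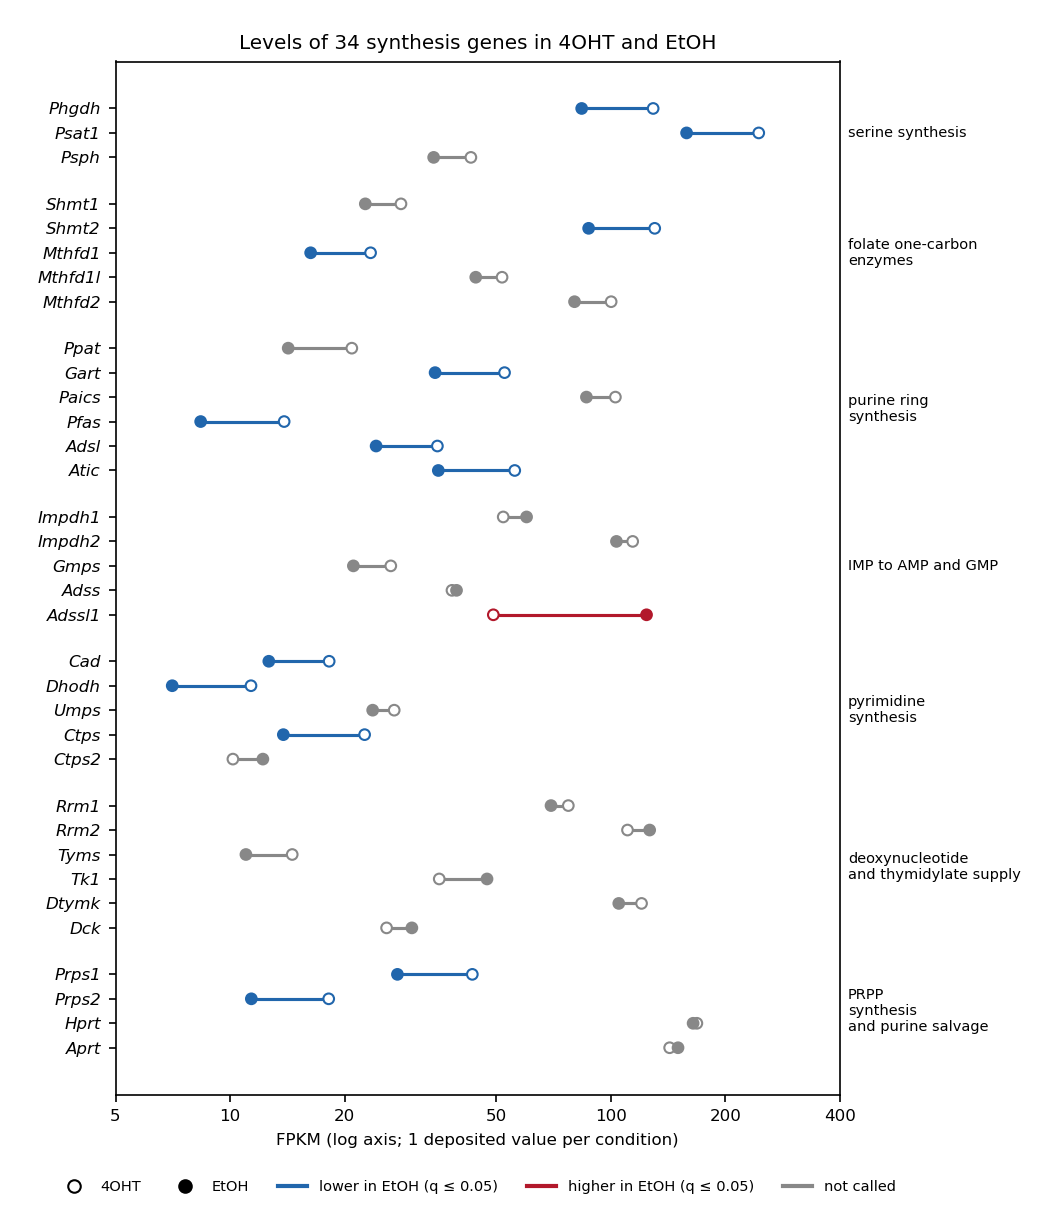
FPKM of the 34 genes on a log axis, 1 deposited value per condition, with 4OHT as open and EtOH as filled circles, grouped by pathway step. Lines to the left in blue mark the 13 genes that fell, the red line marks Adssl1, which went from 49.1 to 124 FPKM, and grey marks the 20 genes that did not pass.

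The enzymes of serine synthesis all had lower values in EtOH, and the enzymes of the first and second steps fell. Phgdh encodes phosphoglycerate dehydrogenase, which takes 3-phosphoglycerate out of glycolysis, and had 129 FPKM in 4OHT and 83.9 FPKM in EtOH. It fell by 35.1%. Psat1, the phosphoserine aminotransferase of the next step, was the most abundant of the 34 genes in 4OHT at 245 FPKM and had 158 FPKM in EtOH, where Hprt was higher at 165 FPKM. It fell by 35.4%. The q-values in the authors' deposited table were 0.000115 for Phgdh and 0.000101 for Psat1. Psph, the phosphatase that releases serine, had 42.9 FPKM in 4OHT and 34.3 FPKM in EtOH and did not pass. The authors' deposited table lists its q-value as 0.147. Of the 50-base words of Phgdh transcripts, 47.8% also occur in transcripts of other genes, most of them in Gm7901, so its own level is uncertain. For Psat1 that share was 0.739%. On mm9, Phgdh lies on chromosome 3 at 98117094 to 98143892 and Psat1 on chromosome 19 at 15979613 to 15999549.

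Of the 5 folate enzymes 2 fell, 1 of them mitochondrial and 1 cytosolic, against 10.5% of all genes tested. Shmt2, the mitochondrial serine hydroxymethyltransferase, which splits serine into glycine and a one-carbon unit, had 130 FPKM in 4OHT and 87.5 FPKM in EtOH and fell by 32.9%. Its cytosolic counterpart Shmt1 was lower in level, at 28.1 and 22.7 FPKM, and did not pass (q = 0.178 in the authors' deposited table). The mitochondrial dehydrogenase and cyclohydrolase gene Mthfd2 had 100.2 and 80.3 FPKM and Mthfd1l, the mitochondrial formate producer, 51.8 and 44.2 FPKM. Neither passed, and the authors' deposited table lists q-values of 0.0941 and 0.369. Mthfd1, which takes up formate for folate in the cytosol, had 23.4 and 16.3 FPKM and fell by 30.4%. All 5 values were lower in EtOH, and the group median was -0.32. With the added fold of 1.5, neither Shmt2 nor Mthfd1 was called.

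Purine ring synthesis had the most falls, 4 of its 6 genes against 10.5% of all genes tested, and the other 2 were lower in value. Pfas, which encodes phosphoribosylformylglycinamidine synthase, had 13.9 FPKM in 4OHT and 8.37 FPKM in EtOH, and its fall by 39.6% was the largest of the 34 genes in percent. Atic, the bifunctional enzyme of the last steps to inosine monophosphate (IMP), had 55.9 and 35.2 FPKM and fell by 37.0%. Gart, whose product carries out 3 reactions of the ring, had 52.6 and 34.6 FPKM and fell by 34.3%, although 15.5% of its words are shared with Gm15964. Adsl, adenylosuccinate lyase, which acts both in the ring and on the way from IMP to AMP, had 35.0 and 24.2 FPKM and fell by 31.0%. The q-values in the authors' deposited table ran from 4.26e-05 for Pfas to 0.00575 for Adsl. The Pfas row overlaps Mir3062, listed at 21.6 and 0 FPKM, which did not pass.

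The 2 purine ring genes that did not pass are neighbours. Ppat encodes the amidotransferase of the committed step and Paics a bifunctional enzyme of later steps, and the deposited table gives both the same locus, chromosome 5 at 77342274 to 77396531 (mm9). In the RefSeq promoter table (GRCm38.p6) their starts lie 275 bases apart on opposite strands. Ppat had 20.9 FPKM in 4OHT and 14.2 FPKM in EtOH, and Paics, higher in level, had 103 and 86.3 FPKM. The changes of Ppat and Adsl were both -0.52, and the p-value in the authors' deposited table was 0.0633 for Ppat and 0.000841 for Adsl. Paics had a change of -0.25, and the authors' deposited table lists its q-value as 0.289. Of the words of Ppat 4.99% also occur in Paics transcripts, and of those of Paics 6.83% in Ppat transcripts.

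On the branches from IMP to AMP and GMP 1 of 5 genes rose and none of the 5 fell by the q-values of the authors' deposited table. Among all genes tested 12.0% rose and 10.5% fell, so with 5 genes these counts lie near those shares. Of the genes that did not pass, Gmps alone was under an unadjusted p of 0.05. Adssl1 encodes an isozyme of adenylosuccinate synthase, the first enzyme towards AMP, best known from muscle, and it had 49.1 FPKM in 4OHT and 124 FPKM in EtOH. Its change of 1.32, a 2.53-fold rise, was above that of 96.8% of all tested genes, and its q-value is listed as 0 in the authors' deposited table. It lies on chromosome 12 at 113858258 to 113879566 (mm9), and none of its words were shared with other genes. Adss, the isozyme found in most tissues, had 38.3 and 39.3 FPKM. On the branch to GMP, Impdh1 and Impdh2, isozymes of IMP dehydrogenase, had 52.2 and 60.1 FPKM and 114 and 103 FPKM, and 39.3% of the words of Impdh2 are shared with its pseudogene. Gmps, GMP synthetase, had 26.4 and 21.1 FPKM and is listed in the authors' deposited table with an unadjusted p-value of 0.0282 and a q-value of 0.102. The group median was 0.04, and it turned to -0.077 with equal FPKM totals.

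**Figure D2:**
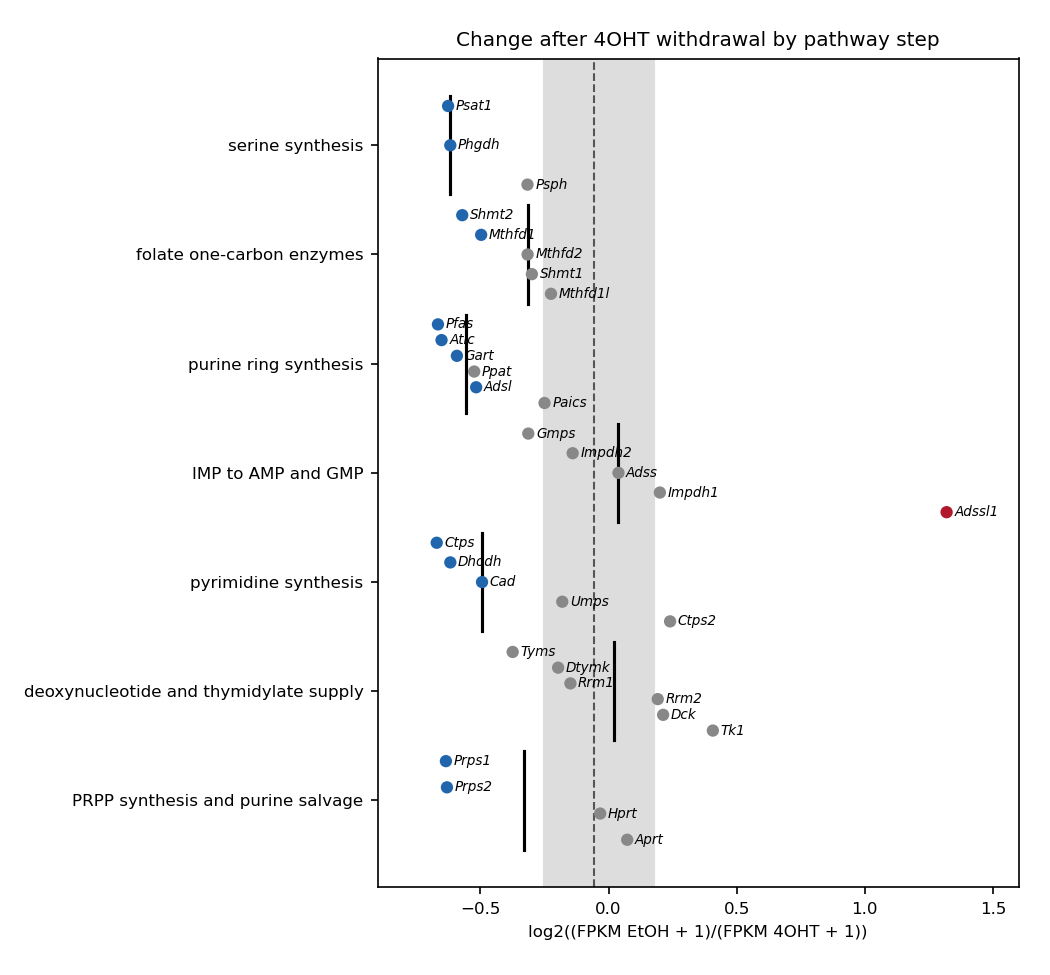
Change of each gene on the scale log2((FPKM EtOH + 1)/(FPKM 4OHT + 1)), by pathway step, with blue for fallen, red for risen and grey for genes that did not pass. Black bars are group medians, and the dashed line (-0.06) and grey band (-0.25 to 0.18) are the median and quartiles of tested genes of at least 1 FPKM. The medians of serine synthesis (-0.62), the purine ring (-0.56), pyrimidine synthesis (-0.49), PRPP and salvage (-0.33) and folate enzymes (-0.32) lie left of the band.

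Among the 5 genes of pyrimidine synthesis 3 fell, against 10.5% of all genes tested. Cad, the large enzyme that carries out the first 3 reactions, had 18.2 FPKM in 4OHT and 12.6 FPKM in EtOH and fell by 30.6%. Dhodh, the mitochondrial dihydroorotate dehydrogenase that feeds electrons into the respiratory chain, had 11.3 and 7.05 FPKM and fell by 37.9%. Ctps, which makes CTP from UTP, had 22.6 and 13.8 FPKM and fell by 38.8%. The q-values in the authors' deposited table were 0.00273, 0.00531 and 0.000264. Umps, which completes UMP, had 27.0 and 23.7 FPKM and did not pass (q = 0.448 in the authors' deposited table). Ctps2, the second CTP synthase, on the X chromosome, had 10.2 and 12.2 FPKM and also did not pass, with the higher value in EtOH.

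By the q-values of the authors' deposited table (Cuffdiff), 0 of 6 genes of deoxynucleotide and thymidylate supply passed, and 2 of 6 were under an unadjusted p of 0.05, in opposite directions. Since 10.5% of all genes tested fell and 12.0% rose, a count of 0 of 6 lies near those shares. Tk1, the thymidine kinase of dividing cells, had 35.4 FPKM in 4OHT and 47.3 FPKM in EtOH. Tyms, thymidylate synthase, which uses a folate-bound carbon, had 14.6 and 11.0 FPKM. The authors' deposited table lists q-values of 0.0549 for Tk1 and 0.0667 for Tyms. The subunits of ribonucleotide reductase, Rrm1 and Rrm2, had 77.3 and 69.7 FPKM and 111 and 127 FPKM. Dtymk, thymidylate kinase, had 120 and 105 FPKM, and Dck, deoxycytidine kinase, 25.8 and 30.02 FPKM. The group median of 0.02 turned to -0.10 with equal FPKM totals. Of 43 DNA replication genes of S phase, Fen1, with 76.7% of its words shared, and Pold2 fell, and E2f2 and Ccne1 rose. These are 4.65% in each direction, against 10.6% fallen and 12.0% risen among the tested genes of at least 1 FPKM. The median was -0.06, as over those tested genes, and 39 of the 43 were not called. Of these 39, Gins2, named after its values were seen, had not been tested by the authors.

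PRPP, the sugar phosphate onto which purines are built and salvaged, is made by PRPP synthetases, and the genes of both isozymes fell. Prps1 had 43.3 FPKM in 4OHT and 27.5 FPKM in EtOH and fell by 36.4%, and Prps2 had 18.2 and 11.4 FPKM and fell by 37.4%. Their q-values in the authors' deposited table were 0.00042 and 0.000462. Both lie on the X chromosome, Prps1 at 136991142 to 137010679 and Prps2 at 163784265 to 163820631 (mm9). Of the words of Prps1 9.93% are shared with Prps1l3. The purine salvage enzymes that use PRPP were among the most abundant of the 34 genes and did not pass. Hprt, which recovers hypoxanthine and guanine, had 168 and 165 FPKM, and Aprt, which recovers adenine, 143 and 150.2 FPKM. Their q-values were 0.924 and 0.817 in the authors' deposited table, and the sign of both changes depends on the scaling. Hprt turned to 0.03 when EtOH was brought to a median ratio of 1, and Aprt to -0.045 with equal FPKM totals.

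Pairs of related enzymes kept or shifted their balance to different degrees, as the plot of shares within pairs shows. Adssl1 made up 56.2% of the FPKM sum of Adssl1 and Adss in 4OHT and 75.9% in EtOH, and that sum was 87.4 FPKM in 4OHT and 163 FPKM in EtOH. Ctps made up 68.9% of the sum of Ctps and Ctps2 in 4OHT and 53.1% in EtOH. Prps1 held 70.4% and 70.8% of the sum of both PRPP synthetases. Shmt1 held 17.7% and 20.6% of the serine hydroxymethyltransferase sum, Mthfd1 31.1% and 26.9% of its pair with Mthfd1l, and Impdh1 31.4% and 36.7% of the IMP dehydrogenase sum. With 1 value per condition the differences within pairs were not tested.

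**Figure D3:**
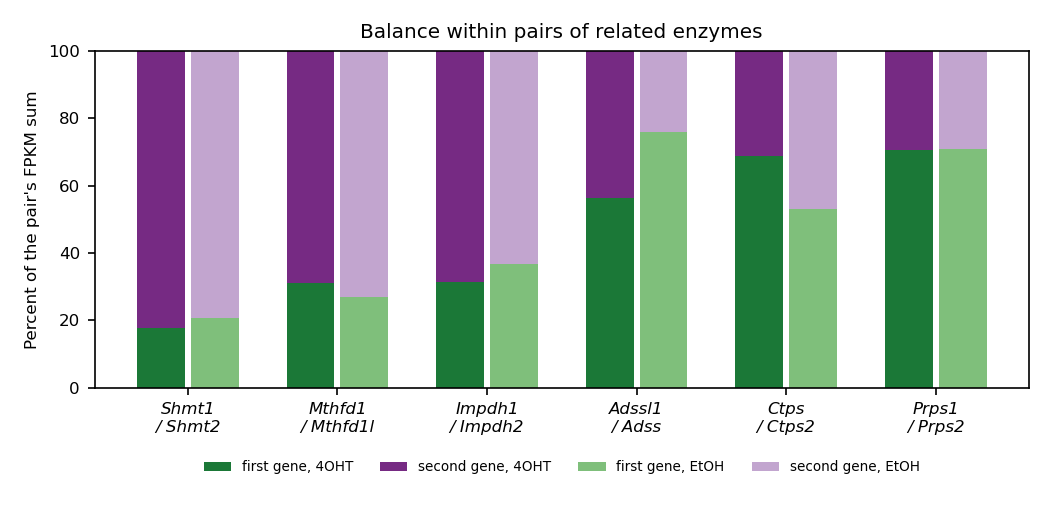
Share of each gene in the FPKM sum of its pair, in percent, with 4OHT as dark and EtOH as light bars and the first-named gene at the bottom. Adssl1 goes from 56.2% to 75.9% of its pair and Ctps from 68.9% to 53.1%, while Prps1 lies at 70.4% and 70.8%.

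Promoter sequence was looked at because genes of several steps fell together. The RefSeq promoter table (GRCm38.p6) held 32 of the 34 genes. Pfas and Dhodh are named only. The 250 bases before each start were searched on both strands for the Myc E-box CACGTG, the Atf4 element TGATGNAA and the E2F element TTTNNCGC (N stands for any base), and no matches overlapped. The E-box was found in 5 of 32 genes, or 15.6%, against 6.86% of 27025 genes in the table. They were Atic, which fell, and Paics, Impdh2, Tyms and Dtymk, which did not pass. The search took in bases that are exon in GENCODE M21, where the matches of Paics and Impdh2 lie whole and that of Atic in part. The Atf4 element was found in 1 of 32, Prps1, against 3.91% of all genes, and the E2F element in 3 of 32, Psph, Ppat and Prps1, against 4.94%. The E2F matches of Psph and Ppat lie in exon bases too. Of the 11 fallen genes in the table, Atic and Prps1 held a match. The stretches below are shown for the gene that fell from the highest level, the fallen gene with 2 kinds of match, a DNA precursor gene with an E-box that did not pass, and the gene that rose. They run 5′ to 3′ on the strand of the gene, leave out bases that are exon in GENCODE M21, and have motif matches in capitals. A match is a string of letters and no binding was measured.
Psat1 (chr19:15925060-15925309, minus strand): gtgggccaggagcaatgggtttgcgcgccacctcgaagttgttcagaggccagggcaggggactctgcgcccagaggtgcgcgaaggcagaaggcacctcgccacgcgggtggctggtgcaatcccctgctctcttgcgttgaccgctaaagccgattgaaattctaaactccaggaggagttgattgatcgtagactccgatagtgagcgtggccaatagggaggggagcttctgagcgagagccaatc
Prps1 (chrX:140456353-140456602, plus strand): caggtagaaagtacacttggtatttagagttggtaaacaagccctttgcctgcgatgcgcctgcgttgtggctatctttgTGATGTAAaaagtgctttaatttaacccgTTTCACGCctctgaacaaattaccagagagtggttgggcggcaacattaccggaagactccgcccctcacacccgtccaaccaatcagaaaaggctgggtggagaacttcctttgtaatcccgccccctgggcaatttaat
Tyms (chr5:30073626-30073875, minus strand): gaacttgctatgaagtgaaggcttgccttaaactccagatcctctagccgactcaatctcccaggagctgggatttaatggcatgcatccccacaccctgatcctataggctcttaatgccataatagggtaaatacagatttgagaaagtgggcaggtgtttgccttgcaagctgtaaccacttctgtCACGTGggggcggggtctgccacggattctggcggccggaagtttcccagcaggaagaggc
Adssl1 (chr12:112619797-112620044, plus strand): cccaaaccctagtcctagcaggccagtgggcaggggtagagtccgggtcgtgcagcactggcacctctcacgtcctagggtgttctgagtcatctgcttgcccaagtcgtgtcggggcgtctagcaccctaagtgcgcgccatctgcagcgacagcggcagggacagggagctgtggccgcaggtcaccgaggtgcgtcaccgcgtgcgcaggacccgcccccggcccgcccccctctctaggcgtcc
In Prps1 the capitals mark TGATGTAA, a match to the Atf4 letters searched. Nearer to the start they mark TTTCACGC, a match to the E2F letters TTTNNCGC, in which N is any base. In Tyms they mark the E-box at positions -61 to -56 counted from the start. The stretches of Psat1 and Adssl1 held no match to these motifs. Psat1 has another start in the RefSeq promoter table, whose stretch is not shown and held no match either.

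Genes around these pathways changed in both directions. Of the tested genes of at least 1 FPKM, 10.6% fell and 12.0% rose. Among other folate and glycine cleavage genes 4 of 16 fell, or 25%, and 1 rose, or 6.25%. Aldh1l2, which oxidises formyl-folate in mitochondria, had 8.06 FPKM in 4OHT and 2.19 FPKM in EtOH and fell by 72.8%. Gcsh, the carrier protein of glycine cleavage, had 28.03 and 16.6 FPKM, and Fpgs, which adds the glutamate tail that keeps folate in cells, had 11.9 and 7.15 FPKM, and both fell. The folate carrier Slc19a1 also fell, from 28.4 to 20.9 FPKM, and was named after its values were seen. Mthfs, which returns a storage form of folate to use, rose from 2.35 to 6.68 FPKM. Of the words of Aldh1l2 13.6% and of Mthfs 16.4% are shared with other genes. The median of these 16 genes was -0.26.

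In the methionine cycle with polyamine and cysteine branches 6 of 13 genes fell, or 46.2%, and 1 rose, or 7.69%, with a median of -0.35. Of the tested genes of at least 1 FPKM, 10.6% fell and 12.0% rose. Srm, spermidine synthase, had 167 FPKM in 4OHT and 88.9 FPKM in EtOH and fell by 46.7%. Mtap, which recovers adenine and methionine from the by-product of polyamine synthesis, had 19.5 and 12.0 FPKM, and Sms, spermine synthase, had 27.8 and 17.7 FPKM, and both fell. Of the words of Sms 17.5% are shared, most with its pseudogene. Cth, cystathionine gamma-lyase, which releases cysteine, rose from 6.77 to 16.1 FPKM.

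Several genes that break down or recycle nucleosides rose. Of 28 other purine genes 7 rose, or 25%, against 12.0% of the tested genes of at least 1 FPKM. Another 4 fell, or 14.3%, near the 10.6% of those tested genes, and the median was -0.13. Nt5e, the surface nucleotidase CD73, which makes adenosine from AMP, had 1.65 FPKM in 4OHT and 10.002 FPKM in EtOH, and Ada, adenosine deaminase, had 10.8 and 22.7 FPKM. Pnp2, a purine nucleoside phosphorylase, had 2.05 and 4.01 FPKM, with 28.5% of its words shared with other genes, mostly Pnp. These 3 rose. The 4 that fell, Gmpr, Nme1, Nme2 and Ampd2, were named after their values were seen, with changes of -0.66, -0.53, -0.43 and -0.37. Nme1 and Nme2 share 11.1% and 47.0% of their words with other genes, and Gmpr 14.4%.

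Of 23 other pyrimidine and deoxynucleotide genes 5 rose, or 21.7%, against 12.0% of the tested genes of at least 1 FPKM. Another 3 fell, or 13.0%, near the 10.6% of those tested genes, and the median was 0.01. Upp1, uridine phosphorylase, had 7.92 FPKM in 4OHT and 32.8 FPKM in EtOH. Glrx, a glutaredoxin, which can pass electrons to ribonucleotide reductase, had 54.2 and 137 FPKM, and Tk2, the mitochondrial thymidine kinase, 9.64 and 15.5 FPKM. These 3 rose, and Dctd, dCMP deaminase, which feeds thymidylate synthesis, fell from 16.7 to 8.21 FPKM. Cmpk2 and Samhd1, which rose by 0.63 and 0.53 on the log2 scale, and Dctpp1 (-0.46) and Txnrd1 (-0.46), which fell, were named after their values were seen.

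The pentose phosphate pathway makes the ribose for PRPP and NADPH. Of its 10 genes 3 rose, or 30%, and 1 fell, or 10%, with a median of 0.22. Of the tested genes of at least 1 FPKM, 12.0% rose and 10.6% fell. G6pdx, the entry enzyme, had 41.8 FPKM in 4OHT and 73.1 FPKM in EtOH, Pgd, of the next oxidative reaction, 136 and 226 FPKM, and Tkt, transketolase, 238 and 338 FPKM. H6pd, the counterpart of G6pdx in the endoplasmic reticulum, fell from 25.8 to 18.4 FPKM. Of the words of G6pdx 16.9% are shared with other genes.

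The list of amino acid transporters and genes known as Atf4 targets also held aminoacyl-tRNA synthetases. Of its 38 genes 9 fell, or 23.7%, and 2 rose, or 5.26%, with a median of -0.23. Of the tested genes of at least 1 FPKM, 10.6% fell and 12.0% rose. Nupr1, a nuclear protein of the stress response, had 319 and 39.7 FPKM and fell. Slc1a4, a transporter of serine and other neutral amino acids, had 6.99 and 3.00 FPKM, and Gpt2, mitochondrial alanine aminotransferase, 23.5 and 11.6 FPKM, and both fell. Slc1a5, Vldlr and the synthetase genes Mars, Nars, Wars and Iars, named after their values were seen, fell too. Asns, Trib3, Chac1, Sesn2, Ddit4, Ddit3 and Atf5, also named after their values were seen, did not pass. Of these, Ddit3 and Atf5 had the higher value in EtOH. Cebpb, a transcription factor with 18.1% of its words shared, rose from 36.1 to 68.7 FPKM, and the cystine transporter Slc7a11 (0.89), named after its values were seen, rose too. Atf4 itself, named after its values were seen, had 379 and 339 FPKM and did not pass (q = 0.518 in the authors' deposited table). Of 10 genes of the Myc network 4 rose and 0 fell by the q-values of the authors' deposited table (Cuffdiff), where Myc alone had a lower value with an unadjusted p under 0.05. The 4 risen genes are 40% of the list, against 12.0% risen and 10.6% fallen among the tested genes of at least 1 FPKM. Mxd1, Mxd4 and Mxi1, which encode antagonists of Myc, rose, with changes of 1.79, 0.76 and 0.46, as did Mycn, a Myc relative, from 1.76 to 4.92 FPKM. Myc, named after its values were seen, had 146 FPKM in 4OHT and 113 FPKM in EtOH and did not pass (q = 0.136 in the authors' deposited table).

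**Figure D4:**
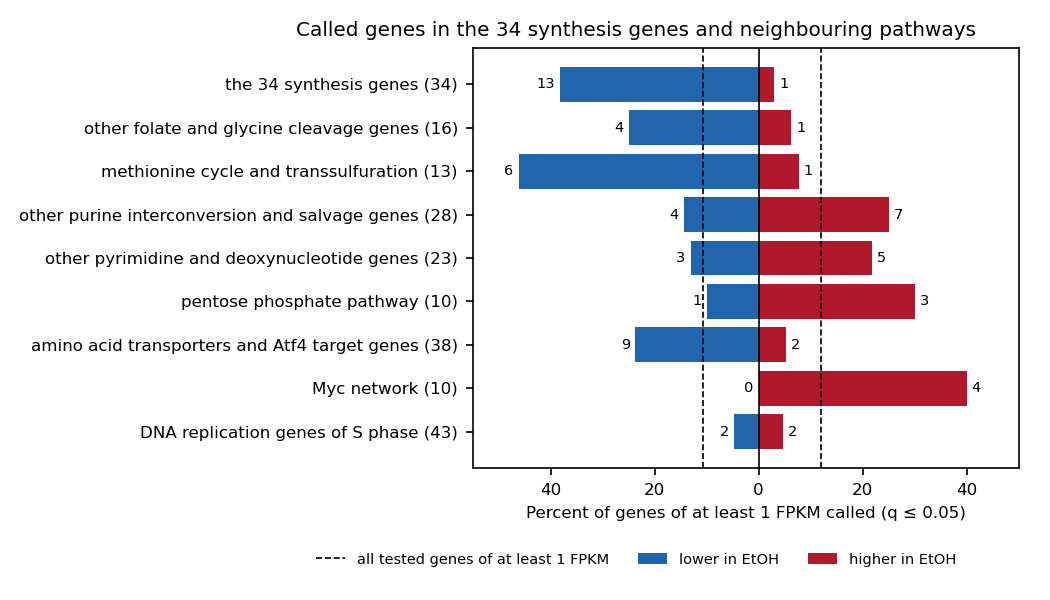
Percent of genes of at least 1 FPKM called lower (left, blue) or higher (right, red) in EtOH, for the 34 synthesis genes and 8 neighbouring lists, with the list size in brackets and the number called beside each bar. Dashed lines mark tested genes of at least 1 FPKM, 10.6% lower and 12.0% higher, and the 34 synthesis genes have 13 lower and 1 higher.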

How the data were processed

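RNA was sequenced from 2 samples, 4OHT and EtOH, each of 2 biological replicates. Per the submitters' processing notes, the genome build was mm9 and the tools were Cuffdiff 2.0.2, Bowtie2 2.0.0.7 and CASAVA 1.8.2. Not given in the sources used here are the annotation, the strand setting and the scaling. Per the file headers, the authors deposited 1 FPKM value per gene and condition, with p-values and q-values for EtOH against 4OHT. Adjusting the deposited p-values over the tested genes by Benjamini-Hochberg gave the q-values to within 1.7e-06. Since FPKM is relative to the library, other values drop where abundant RNAs rise.

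With 1 value per condition no test of this work was possible, and calls are those of the authors at q of at most 0.05. Changes used a pseudocount of 1 FPKM, and lists took genes with at least 1 FPKM in 4OHT or EtOH. The members and lists were chosen with earlier results of these data known. The rule for names took all 34 genes, up to 4 called genes with the largest change per neighbouring list, and marker genes, of which the text gives sums and a few values. One gene that the rule names is not reported here. Of 211 entries in 8 neighbouring lists 208 were matched by symbol, older symbols included. To measure shared sequence, each 50-base word of a gene was looked for in GENCODE M21 transcripts (GRCm38) of other genes, of which no coordinates were used with mm9. Protein sequences were not analysed here. Alternatives were another q-value, an added fold, other pseudocounts, 2 scalings and no filter. Steps ran in Python 3.11.15 with pandas 2.3.3 and numpy 2.4.6 and were tested on simulated data.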

Additional observations from a re-analysis of the deposited data

How the results depend on the processing

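No paired analysis was possible because each condition had 1 deposited value, and for the same reason no replicate could be left out. The counts of 13 genes fallen and 1 risen were the same at q of at most 0.01 and with q adjusted over tested genes of at least 1 FPKM. They were 9 and 1 with the added fold of 1.5. Without Phgdh, Gart and Impdh2, which share over 10% of their words with other genes (an alternative chosen after seeing the data), 11 of 31 fell and 1 rose. Of all genes tested, 10.5% fell and 12.0% rose. Of 168 group and list values tried, 144 kept their direction and stayed near the values given. Near was a loose limit, within 1.5-fold or, for a median, a small shift, so 9 genes called lower counts as near 13. The cause of the changes in the other values was not tested.

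With the added fold of 1.5, 7.23% of all genes tested were called lower. Those called lower were 0 of 5 folate one-carbon enzymes, 3 of 13 in the methionine cycle and 4 of 38 in the list with Atf4 targets. They were 1 of 28 other purine genes, 1 of 23 other pyrimidine genes, 0 of 10 in the pentose phosphate pathway and 0 of 43 in DNA replication. Apart from the methionine cycle, these counts lie near or under that share. At q of at most 0.01, 6.68% of all genes tested were called lower and 9.41% higher. Those called lower were 2 of 28 other purine genes, 1 of 23 other pyrimidine genes and 1 of 43 of DNA replication. Those called higher were 3 of 23 other pyrimidine genes and 1 of 43 of DNA replication. These counts too lie near or under the shares of all genes tested. With EtOH brought to the FPKM total of 4OHT, 3 medians changed sign, to -0.077 for IMP to AMP and GMP, -0.096 for deoxynucleotide supply and -0.086 for other pyrimidine genes. Under that scaling the median was 0.10 for the pentose phosphate pathway, 0.16 for the Myc network and -0.18 for DNA replication. With a pseudocount of 5 the median was -0.15 for other folate genes and -0.22 for the methionine cycle. Without the filter on low values it was -0.088 for other folate genes, -0.11 for the methionine cycle, 0.071 for the pentose phosphate pathway and 0.11 for the Myc network. FPKM gives no depth, so it cannot be said which of the 20 genes that did not pass were limited by it.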
